A study of Mus musculus with 16 samples.

Results

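The genes described here are those of cholesterol synthesis, from the supply of acetyl-CoA to the last reductase, together with the genes that control the sterol regulatory element-binding proteins (SREBPs). They were taken as a list of 29 named genes and were not chosen by their values. Of these, 27 had a probe set assigned to them alone on the array and were measured, among 22180 genes in all. Acat2 and Idi1 were not analysed here. Of the 27, 19 encode enzymes, 1 encodes the sterol carrier protein Stard4, and 7 encode the SREBP precursors and the proteins that retain, escort or cut them.

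The cells were dendritic cells of male C57/B6 mice, grown from marrow for 10 days in 20 ng/ml of the growth factor GM-CSF, and all groups shared this background. Each of 4 groups had 4 arrays, and every treatment lasted 24 h. The groups were mock-treated cells, cells given PA, cells given IMQ, and cells given both IMQ and PA. PA is read here as palmitic acid, a saturated fatty acid, and was given at 0.5 mM on albumin (BSA), 6 molecules of PA to 1 of BSA. IMQ is read as imiquimod, which activates the RNA sensor TLR7, and its dose is given as 3 uM in the description of the series and as 3 ug/ml in the protocol. The labels do not say whether mock cells received albumin, how old the mice were, or which animals and cultures the biological replicates were, so p-values measure the spread between these arrays only. The cells are a culture population: 10 of 11 GM-CSF dendritic cell markers were measured and none was dim, whereas all 6 measured lymphocyte markers were. Of 8 measured macrophage markers 7 were not dim either, and the mean mock level of that list was 9.22, beside 9.31 for the dendritic cell list. Levels of different probe sets do not measure the shares of cell types. Other lists were dim in part: 4 of 9 measured neutrophil markers, 3 of 5 plasmacytoid dendritic cell markers and 1 of 2 erythroid markers. Of 6 mast cell, basophil and eosinophil markers 4 were dim. A gene was called dim when all 4 of its group means were under 4.93, a level that 95% of 1409 sensory receptor genes do not exceed, and no measured sterol or SREBP gene was dim.

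Cholesterol is built from acetyl-CoA through mevalonate, farnesyl diphosphate, squalene and lanosterol, and the mevalonate arm also feeds protein prenylation, dolichol and ubiquinone. SREBPs are made as membrane-bound precursors in the endoplasmic reticulum. When sterols are scarce, SCAP escorts the precursor to the Golgi, where the proteases encoded by Mbtps1 and Mbtps2 release a fragment that enters the nucleus and binds sterol regulatory elements. INSIG proteins hold the SCAP and SREBP complex back when sterols are plentiful. SREBP-driven genes respond to lipid loading and to innate immune stimulation in macrophages and dendritic cells.

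Promoters are shown first because SREBP is known to act with the factors NF-Y and Sp1 at neighbouring sites. RefSeq promoters (GRCm38.p6) were used for 23 of the 27 genes, 31 promoters in all, and the 250 bases before each start were searched on both strands. For these genes, promoters on 1 chromosome were left out by choice, whereas the shares over all promoters were not limited in this way. The sterol regulatory element core TCACNCCA was present before 3 genes, Hmgcs1, Msmo1 and Srebf2, and in 3.67% of 32851 mouse promoters. The NF-Y box CCAAT was in 20 of the 31 promoters, of 19 genes, and in 33.8% of all promoters. The Sp1 box GGGCGG was in 23 of the 31, of 20 genes, and in 32.7% of all promoters. None of the 3 core matches overlapped an NF-Y or Sp1 box. These matches describe letters in a window and are not evidence of binding. The core lay 137 to 130 bases before the start of Hmgcs1, 177 to 170 before that of Msmo1 and 162 to 155 before that of Srebf2. The windows of these 3 genes are printed 5′ to 3′ on the gene's strand, followed by those of Insig1 and Acss2, the genes with the greatest rise when PA was added to IMQ. Capitals mark the sterol regulatory element core and the NF-Y box, which reads ATTGG where it lies on the other strand.
Hmgcs1, chr13:119690101-119690350, plus strand: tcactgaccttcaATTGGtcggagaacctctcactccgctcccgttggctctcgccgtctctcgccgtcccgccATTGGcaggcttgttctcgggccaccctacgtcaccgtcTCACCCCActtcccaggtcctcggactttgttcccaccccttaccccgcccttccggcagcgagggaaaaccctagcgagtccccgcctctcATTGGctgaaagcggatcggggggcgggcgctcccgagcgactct
Msmo1, chr8:64733579-64733828, minus strand: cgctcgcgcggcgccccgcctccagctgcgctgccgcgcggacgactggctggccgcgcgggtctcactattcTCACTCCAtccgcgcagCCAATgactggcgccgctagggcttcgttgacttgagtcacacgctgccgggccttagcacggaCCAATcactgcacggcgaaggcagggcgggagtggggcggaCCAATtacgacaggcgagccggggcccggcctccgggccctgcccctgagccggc
Srebf2, chr15:82147019-82147268, plus strand: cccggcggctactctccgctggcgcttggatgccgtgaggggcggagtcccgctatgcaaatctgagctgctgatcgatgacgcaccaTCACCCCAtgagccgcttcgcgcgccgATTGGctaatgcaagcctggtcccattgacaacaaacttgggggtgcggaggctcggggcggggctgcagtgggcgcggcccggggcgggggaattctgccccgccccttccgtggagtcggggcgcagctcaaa
Insig1, chr5:28071162-28071411, plus strand: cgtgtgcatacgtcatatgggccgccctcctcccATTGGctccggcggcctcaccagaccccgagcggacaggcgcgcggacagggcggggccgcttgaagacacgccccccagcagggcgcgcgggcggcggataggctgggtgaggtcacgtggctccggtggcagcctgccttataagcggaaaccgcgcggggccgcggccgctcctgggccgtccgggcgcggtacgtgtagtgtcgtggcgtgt
Acss2, chr2:155517793-155518042, plus strand: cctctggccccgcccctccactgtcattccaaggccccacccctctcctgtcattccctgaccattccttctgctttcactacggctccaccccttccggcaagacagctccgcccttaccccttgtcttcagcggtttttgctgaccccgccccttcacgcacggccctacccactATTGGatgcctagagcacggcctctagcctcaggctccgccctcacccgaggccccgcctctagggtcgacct
The Hmgcs1 and Msmo1 windows each held 3 NF-Y boxes and 1 core. The Insig1 and Acss2 windows each held 1 NF-Y box and no match to the core in these 250 bases.

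Values are log2 intensities, so a difference of 1 is a doubling of signal. Apart from the dim level and the mean levels of marker lists, signals were not compared between genes. Pearson correlations between arrays of a group ran from 0.988 to 0.992 over probe sets, and 0 pairs of arrays held identical values. Some arrays without IMQ stood apart in inflammatory genes. Il6, an inflammatory cytokine, read 7.6, 7.9, 7.7 and 4.3 on the mock arrays and 4.1, 4.0, 7.4 and 8.2 on the PA arrays, against 11.9 to 12.3 on the arrays with IMQ. The mean over 9 IMQ response genes behaved alike, at 7.97, 8.22, 8.14 and 5.94 in mock and 6.29, 6.26, 7.71 and 8.30 with PA. Mock replicates 1 to 3 and PA replicates 3 and 4 therefore carried a signal that the other 3 arrays without IMQ did not. Each comparison below was repeated without these 5 arrays, which leaves 1 mock and 2 PA arrays and takes the lone mock array to vary like the other groups.

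**Figure D1:**
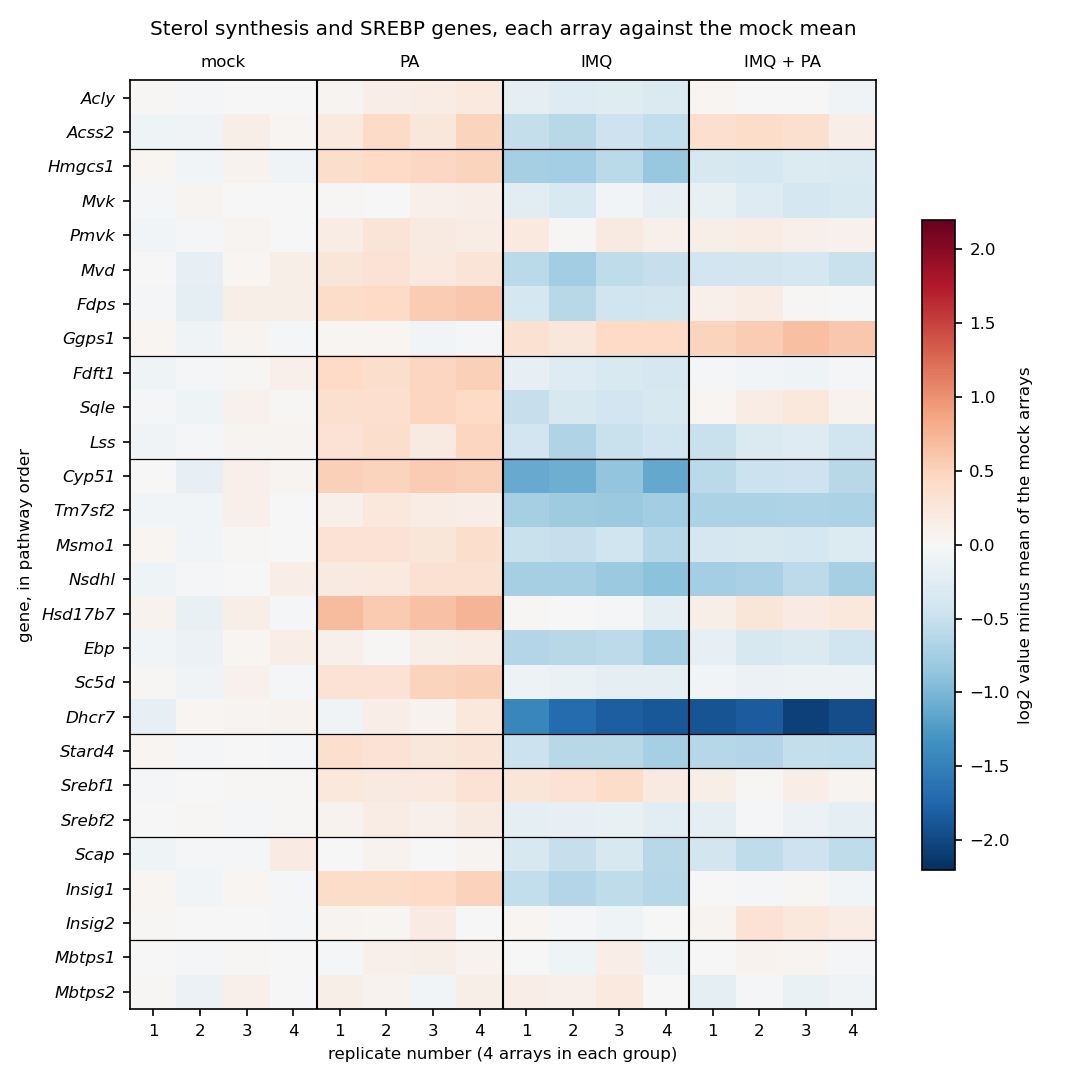
Heatmap of the 27 measured genes (vertical, in pathway order, lines between roles) on the 16 arrays (horizontal, 4 replicates in each group); colour is the log2 value minus the mean of the mock arrays. The PA columns are mostly red, the IMQ columns mostly blue with Dhcr7 darkest, and the columns with both are paler blue than IMQ alone for most enzymes.

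PA alone raised the sterol pathway by small amounts and lowered no measured gene of it. Relative to mock, 14 of 27 genes rose and 0 fell (limma, p under 0.05 after Benjamini-Hochberg adjustment over the 22180 genes). Of all genes 1.49% were called, 1.05% higher and 0.442% lower. That is 331 genes with all arrays, and 201 without mock replicate 1, 170 without mock replicate 2, 220 without PA replicate 3 and 192 without PA replicate 4. In bulk cultures, fewer cells of a type and less RNA per cell cannot be told apart. The median log2 change of the 27 was 0.27, beside 0.01 over all genes, and all 27 estimates lay above 0, the least being 0.00 for Ggps1. In 18 of the 27 every PA array was above every mock array, as in 6.56% of all genes. In 0 was every PA array below every mock array, against 3.36%. The enzymes and Stard4 took 12 of the 14 calls, from 20 genes. The regulators gave the other 2, from 7 genes, Insig1 and Srebf1.

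Hsd17b7, a keto-sterol reductase of the late pathway, had the greatest rise with PA. It read 5.78, 5.54, 5.84 and 5.67 in mock (5.71 ± 0.13, mean ± SD, n = 4) and 6.40, 6.28, 6.35 and 6.45 with PA (6.37 ± 0.07). The groups did not overlap, and the log2 change was 0.66 ± 0.07 (SE; adjusted p = 0.000082). Cyp51, the lanosterol demethylase, read 7.92, 7.74, 8.04 and 7.97 in mock and 8.43, 8.41, 8.48 and 8.44 with PA. All PA arrays lay above all mock arrays and within a narrow band, and the change was 0.52 ± 0.07, or 1.44-fold (adjusted p = 0.000772). Fdps, which makes farnesyl diphosphate, read 8.12, 7.93, 8.27 and 8.28 in mock and 8.56, 8.59, 8.71 and 8.74 with PA. It rose by 0.50 ± 0.08 (adjusted p = 0.003598), again without overlap. Fdft1, squalene synthase, read 8.54, 8.60, 8.66 and 8.75 in mock and 9.09, 9.03, 9.11 and 9.16 with PA, a rise of 0.46 ± 0.05 (adjusted p = 0.00025). These 4 genes stand at the farnesyl diphosphate step and in the squalene and post-lanosterol steps.

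All 3 enzymes of the squalene and lanosterol steps rose. Beside Fdft1, these were the squalene epoxidase Sqle (0.40 ± 0.06) and the cyclase Lss (0.35 ± 0.07). Of the 8 enzymes after lanosterol, 5 rose: Hsd17b7, Cyp51, the desaturase Sc5d (0.41), the methyl oxidase Msmo1 (0.32) and the dehydrogenase Nsdhl (0.27, adjusted p = 0.04976). The other 3, Tm7sf2 (0.16), Ebp (0.11) and Dhcr7 (0.09), did not pass. Earlier in the pathway, 2 of 6 mevalonate and isoprenoid genes rose, namely Fdps and the HMG-CoA synthase Hmgcs1 (0.44 ± 0.05). Changes of the kinases Mvk (0.06) and Pmvk (0.20), the decarboxylase Mvd (0.27) and Ggps1 did not pass. Acss2, which makes acetyl-CoA from acetate, rose by 0.34 ± 0.08, and the change of Acly, which makes it from citrate, was 0.14 (adjusted p = 0.1527). Stard4, which carries sterol between membranes, rose by 0.30 ± 0.05.

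Among the regulators, Insig1, which retains SCAP and is itself a known SREBP target, read 9.66, 9.56, 9.67 and 9.60 in mock and 10.02, 10.02, 10.07 and 10.13 with PA. The groups were well apart, with a change of 0.43 ± 0.05 (adjusted p = 0.000082). Srebf1 rose by 0.24 ± 0.05 (adjusted p = 0.02751), while Srebf2 (0.14), Insig2 (0.07), Scap (0.04), Mbtps1 (0.07) and Mbtps2 (0.07) did not pass.

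The PA result was the one most affected by the arrays with inflammatory signal. Without those 5 arrays, 0 of the 27 genes passed the adjusted threshold, 11 had an unadjusted limma p under 0.05, as did 7.44% of all genes, and only 15 genes passed in the whole table. The estimates lay above 0 for 24 of 27 genes, with a median of 0.18, where 53.4% of all genes lay above 0. For the 14 genes called with all arrays they ran from 0.06 to 0.67. Hsd17b7 kept a change of 0.67 (adjusted p = 0.08075), Hmgcs1 of 0.48 and Insig1 of 0.42, whereas the estimate for Nsdhl was 0.06. With the level of the IMQ response genes as a covariate instead, 13 of the 14 calls were kept and Nsdhl was lost. The median of the 20 enzyme and carrier genes, set against the mock mean, was -0.03, -0.06, 0.06 and 0.02 on the mock arrays and 0.29, 0.32, 0.25 and 0.36 on the PA arrays. The number of these genes above the mock mean was 19 of 20 on each PA array, and 9, 2, 18 and 12 on the mock arrays.

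**Figure D2:**
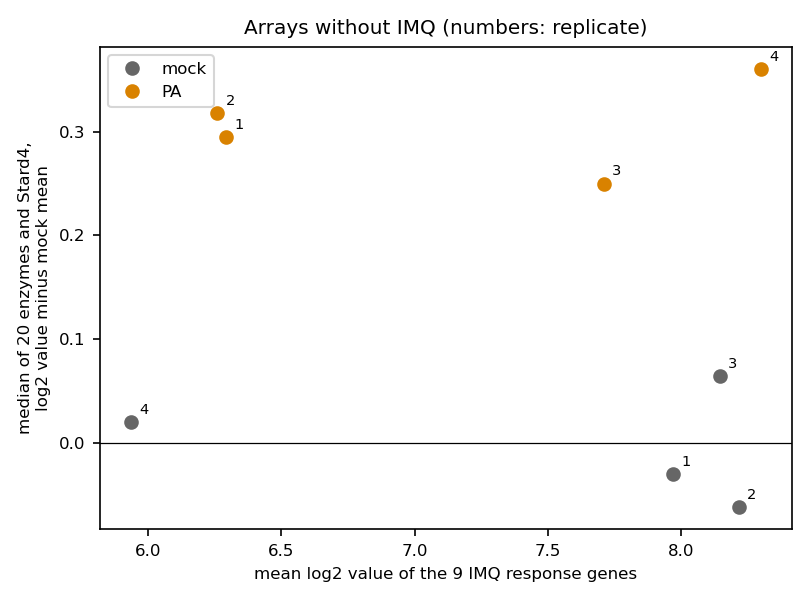
Each of the arrays without IMQ as a point, labelled by replicate; horizontal axis, mean log2 value of 9 IMQ response genes; vertical axis, median over 20 enzyme and carrier genes of the log2 value minus the mock mean. PA points lie at 0.25 to 0.36 and mock points at -0.06 to 0.06, with high and low inflammatory levels in both groups.

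IMQ alone had the opposite and larger effect. Relative to mock, 20 of 27 genes fell and 3 rose, where 34.8% of all genes were called, 17.9% lower and 17.0% higher. The median change was -0.46, beside 0.01 over all genes. In 20 genes every IMQ array was below every mock array, as in 17.5% of all genes, and in 2 every IMQ array was above, against 16.7%. Without the 5 arrays, 18 genes were called, and the 5 lost were Mvk, Pmvk, Sc5d, Srebf1 and Srebf2. Markers of cell type moved in the same comparison. Of 10 dendritic cell markers 6 fell and 4 rose, among them Itgax (-1.71), and of 8 macrophage markers 3 fell and 4 rose, among them Mrc1 (-3.62) and Marco (3.04). The mean log2 value of each list moved less, but rises and falls cancel in such a mean. The dendritic cell mean ran from 9.29 to 9.37 in mock and 9.15 to 9.22 with IMQ, and the macrophage mean from 9.16 to 9.27 and from 9.34 to 9.40. Markers moved in other comparisons too. When PA was added to IMQ, 3 of 8 macrophage markers rose (11.6% of all genes did) and 4 fell (9.44% did). Of 10 dendritic cell markers 2 rose and 1 fell. Between both agents and PA, 3 macrophage markers were higher (16.8% of all genes were) and 4 lower (18.5% were). Of the dendritic cell markers 4 were higher and 5 lower there. Against mock, cells with both agents had 3 macrophage markers higher (18.4% of all genes were) and 4 lower (18.1% were). Of the dendritic cell markers 4 were again higher and 5 lower. With PA alone Marco fell (-0.56), the only call in these 2 lists. The part of these shifts in the sterol results was not tested.

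Dhcr7, the reductase that completes cholesterol, fell most. It read 7.79, 8.02, 8.02 and 8.05 in mock (7.97 ± 0.12) and 6.54, 6.28, 6.15 and 6.11 with IMQ (6.27 ± 0.19). No IMQ array came near the mock range, and the change was -1.70 ± 0.09, a 3.25-fold lower signal (adjusted p = 3.897e-10). Cyp51 read 6.82, 6.84, 7.04 and 6.79 with IMQ, all below the mock values given above, and was 2.06-fold lower (-1.04 ± 0.07; adjusted p = 3.415e-09). Nsdhl read 8.46, 8.51, 8.54 and 8.69 in mock and 7.83, 7.82, 7.74 and 7.65 with IMQ, a change of -0.79 ± 0.06 (adjusted p = 3.896e-08). Tm7sf2, a sterol reductase, read 6.96, 6.97, 7.14 and 7.04 in mock and 6.29, 6.25, 6.21 and 6.25 with IMQ, a change of -0.78 ± 0.05 (adjusted p = 1.1e-09). All 4 act after lanosterol, and 7 of the 8 measured genes of that stretch fell. The other 3 that fell were Ebp, the sterol isomerase (-0.64), Msmo1 (-0.52) and Sc5d (-0.17). The Sc5d call was lost without the 5 arrays, with array medians set equal, with only mock and IMQ fitted, and without mock replicate 1 or 3 or IMQ replicate 3 or 4. Hsd17b7, the gene with the greatest rise under PA, was the exception, with a change of -0.05 (95% confidence interval -0.20 to 0.09; adjusted p = 0.6106).

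Upstream, all 3 genes of the squalene and lanosterol steps fell (Lss by 0.50, Sqle by 0.41 and Fdft1 by 0.29 on the log2 scale), as did both acetyl-CoA genes (Acss2 by 0.53 and Acly by 0.27). In the mevalonate and isoprenoid steps, Hmgcs1 (-0.73), Mvd (-0.61), Fdps (-0.46) and Mvk (-0.21) fell. Stard4 fell by 0.61. Of the 3 genes that rose, Ggps1 and Pmvk belong to the mevalonate and isoprenoid steps, where the other 4 fell, and Srebf1 is an SREBP precursor gene. Ggps1 directs farnesyl diphosphate to geranylgeranyl diphosphate for protein prenylation, away from sterols. It read 8.11, 7.98, 8.13 and 8.03 in mock and 8.39, 8.32, 8.51 and 8.51 with IMQ, with no overlap and a change of 0.37 ± 0.06 (adjusted p = 6.506e-05). Srebf1 read 7.62, 7.65, 7.69 and 7.69 in mock and 7.93, 7.98, 8.06 and 7.86 with IMQ, also apart, and rose by 0.30 ± 0.05 (adjusted p = 0.0002071). Pmvk rose by 0.14 ± 0.05 (adjusted p = 0.0414), but its groups overlapped and the call was lost under several single-array omissions.

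With all arrays, the precursor genes moved in opposite directions with IMQ. Srebf2, the isoform mainly tied to sterol synthesis, read 8.92, 8.95, 8.90 and 8.95 in mock and 8.74, 8.75, 8.77 and 8.69 with IMQ, a change of -0.19 ± 0.05 (adjusted p = 0.003473), while Srebf1, known for fatty acid synthesis, rose. Both calls were lost without the 5 arrays, with 0.27 for Srebf1 (adjusted p = 0.05796) and -0.21 for Srebf2 (adjusted p = 0.1117). The array does not separate the Srebf1 isoforms here, nor does it measure cleavage of the proteins. Insig1 read 8.98 to 9.09 with IMQ, below all its mock values, and fell by 0.59 ± 0.04 (adjusted p = 2.013e-08). Insig2 (-0.03), Mbtps1 (-0.01) and Mbtps2 (0.12) did not pass. Scap fell by 0.46 ± 0.07 on the probe set used (adjusted p = 5.407e-05), but a dimmer second probe set for the gene gave 0.22 (adjusted p = 0.08559), so the direction for Scap rests on 1 probe set.

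**Figure D3:**
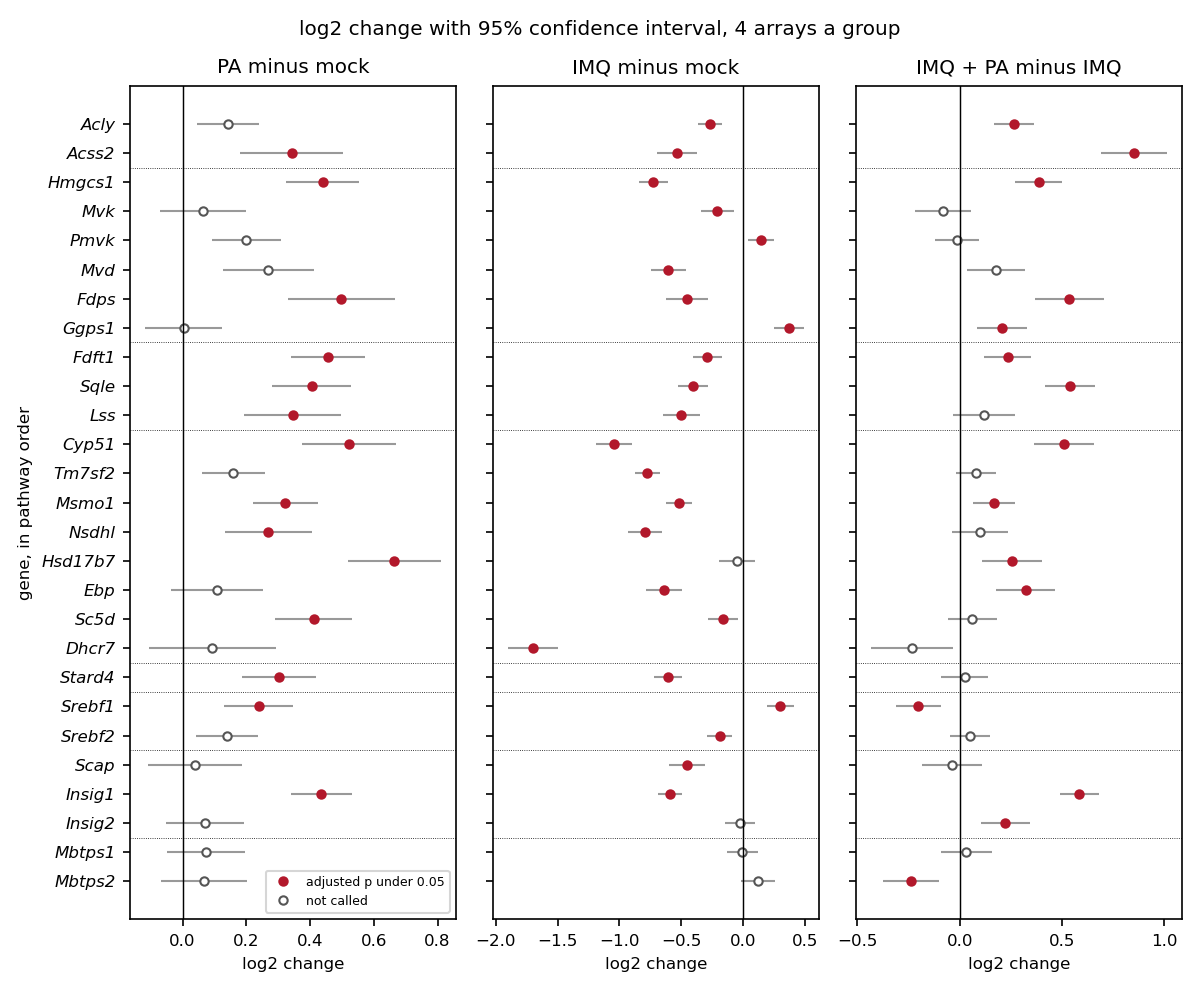
log2 changes of the 27 genes (vertical, in pathway order) for PA against mock, IMQ against mock, and IMQ with PA against IMQ, each panel with its own horizontal scale; points are estimates from 4 arrays a group, lines are 95% confidence intervals and filled points have an adjusted p under 0.05. Filled points lie to the right of 0 for PA, mostly to the left for IMQ, and mostly to the right again when PA was added to IMQ.

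PA added to IMQ raised many of the sterol genes. Relative to IMQ, 13 of 27 genes rose and 2 fell, where 21.1% of all genes were called, 11.6% higher and 9.44% lower. The median change was 0.17, beside -0.02 over all genes. In 15 genes every array with both agents was above every IMQ array, as in 12.5% of all genes, and in 2 they were all below, against 11.0%. This comparison holds no mock or PA array. Leaving out the 5 arrays therefore kept its estimates as they were and altered only the estimate of the spread, so it was no check of these changes.

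Acss2 rose most. It read 6.88, 6.80, 6.96 and 6.87 with IMQ (6.88 ± 0.07) and 7.79, 7.81, 7.76 and 7.56 with both agents (7.73 ± 0.11). The ranges were far apart, and the signal was 1.81-fold higher (0.85 ± 0.08; adjusted p = 4.787e-07). Insig1 read 9.64, 9.61, 9.65 and 9.57 with both agents, above every IMQ array, a change of 0.58 ± 0.05 (adjusted p = 9.025e-08). Sqle read 7.56, 7.71, 7.65 and 7.72 with IMQ and 8.12, 8.22, 8.31 and 8.15 with both, a change of 0.54 ± 0.06 (adjusted p = 3.607e-06). Fdps read 7.77, 7.54, 7.72 and 7.74 with IMQ and 8.26, 8.32, 8.17 and 8.16 with both, a change of 0.54 ± 0.08 (adjusted p = 0.0001052). These 4 genes stand at the acetyl-CoA, farnesyl diphosphate and squalene epoxide steps and at SREBP retention.

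By role, both acetyl-CoA genes rose (Acly by 0.27). So did 3 of 6 mevalonate and isoprenoid genes, Fdps, Hmgcs1 (0.39) and Ggps1 (0.21), and 2 of 3 squalene and lanosterol genes, Sqle and Fdft1 (0.23). After lanosterol 4 of 8 rose, Cyp51 (0.51), Ebp (0.32), Hsd17b7 (0.26) and Msmo1 (0.17). Dhcr7 did not: its change was -0.23 ± 0.09 (adjusted p = 0.09581). Stard4, at 0.03, did not pass either (95% confidence interval -0.09 to 0.14). Insig2, which had changed with neither agent alone at the threshold, rose by 0.22 ± 0.06 (adjusted p = 0.00966). The genes that fell were Srebf1, by 0.20 ± 0.05 (adjusted p = 0.0093), and the protease gene Mbtps2, by 0.24 ± 0.06 (adjusted p = 0.01358). When array medians were set equal both of these calls were lost and the split became 13 higher and 0 lower. Srebf2 (0.05) and Scap (-0.04) did not pass.

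**Figure D4:**
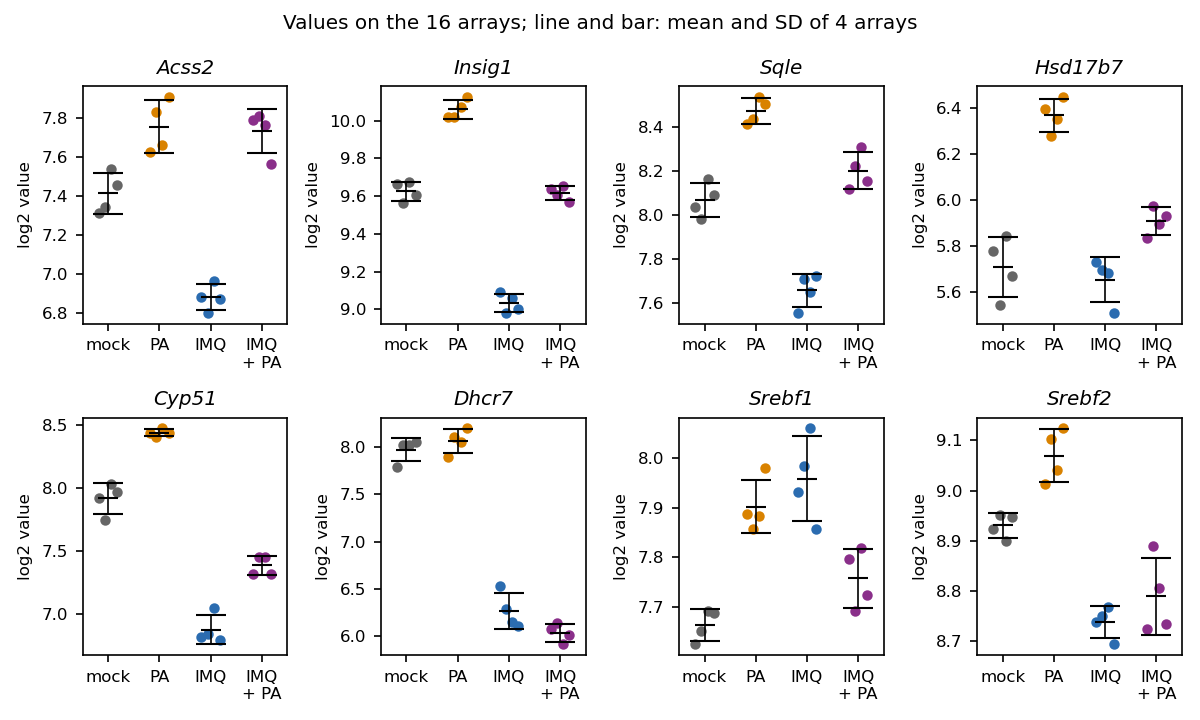
log2 values (vertical) of Acss2, Insig1, Sqle, Hsd17b7, Cyp51, Dhcr7, Srebf1 and Srebf2 on the 16 arrays, by group (horizontal); points are arrays, the short line and bar are the mean and SD of 4 arrays, and each panel has its own scale that does not start at 0. Insig1 with both agents (9.57 to 9.65) lies in the mock range (9.56 to 9.67), Acss2 lies just above the mock values, and Dhcr7 stays near its IMQ level.

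Cells with both agents were also read against mock. This comparison was added after the values were seen, and it shares arrays with those above. In all, 13 genes were lower than mock and 4 higher, where 36.5% of all genes were called, 18.1% lower and 18.4% higher, and the median was -0.12. Ranges lay apart in the same 13 genes below, and in 4 above (Pmvk, which was not called, in place of Hsd17b7), against 17.4% and 17.8% of all genes. Without the 5 arrays 11 genes were called, and the 6 lost were Acss2, Hsd17b7, Insig2, Hmgcs1, Mvk and Srebf2. The genes lower than mock were led by Dhcr7 (-1.93 ± 0.09), Tm7sf2 (-0.70 ± 0.05), Nsdhl (-0.69 ± 0.06) and Stard4 (-0.58 ± 0.05), with adjusted p from 7.312e-11 for Dhcr7 to 1.967e-07 for Stard4. The other 9 were Cyp51, Scap, Mvd, Lss, Msmo1, Hmgcs1, Ebp, Mvk and Srebf2 (-0.14). For Scap this holds for the probe set used, as the dimmer second one gave 0.11 and did not pass. Of the 10 genes not called against mock, 6 had been called lower with IMQ alone. For Insig1 the change was -0.01 (95% confidence interval -0.10 to 0.09), for Acly -0.01, for Fdft1 -0.06, for Sc5d -0.10, for Fdps 0.08 and for Sqle 0.13. The genes higher than mock were Ggps1 (0.58 ± 0.06; adjusted p = 4.215e-07), Acss2 (0.32 ± 0.08; adjusted p = 0.00302), Hsd17b7 (0.20 ± 0.07; adjusted p = 0.0308) and Insig2 (0.20 ± 0.06; adjusted p = 0.01177). Of these, Ggps1 alone was still called without the 5 arrays, and Hsd17b7 overlapped with mock. Srebf1 (0.09), Pmvk (0.13), Mbtps1 (0.03) and Mbtps2 (-0.12) did not pass.

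The order of the group means summarises the 4 conditions. In 14 of 27 genes it ran, from low to high, IMQ, both agents, mock and PA. In 5 genes, among them Acss2, Sqle and Fdps, it ran IMQ, mock, both agents and PA, although mock and both agents were not always apart. In 4 genes, Dhcr7, Mvk, Scap and Mbtps2, cells with both agents were the lowest. Of these, Mbtps2 differed from IMQ at the threshold, and there IMQ alone was the highest group, whereas Dhcr7, Mvk and Scap did not. The share of all genes with each order was not counted. Many neighbouring means did not differ at the threshold: 10 of 27 genes were not called between both agents and mock, and 12 between both agents and IMQ.

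Set against PA alone, which asks what IMQ did in cells that all had PA, 22 of 27 genes were lower and 1 higher, where 35.3% of all genes were called, 18.5% lower and 16.8% higher. Ranges lay apart in 21 genes below and 1 above, against 18.8% and 16.9% of all genes. The median was -0.44, beside 0.00 over all genes. Dhcr7 read 7.89, 8.11, 8.06 and 8.20 with PA and 6.07, 6.14, 5.92 and 6.01 with both, a 4.07-fold lower signal (-2.03 ± 0.09; adjusted p = 4.293e-11). Cyp51 changed by -1.05 ± 0.07 (adjusted p = 2.81e-09), Nsdhl by -0.96 ± 0.06 (adjusted p = 3.297e-09) and Stard4 by -0.88 ± 0.05 (adjusted p = 1.218e-09). Ggps1 was the gene that was higher, by 0.57 ± 0.06 (adjusted p = 4.55e-07). Insig1 (-0.44), Srebf1 (-0.15), Srebf2 (-0.28) and Scap (-0.53) were lower, and Insig2 (0.13) did not pass. The dimmer second Scap probe set gave 0.09 here and did not pass. Acss2 was one of the 4 genes that did not pass, at -0.02 (95% confidence interval -0.19 to 0.14). Without the 5 arrays 21 genes were called.

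Whether PA acted differently with IMQ than without it was tested by the interaction: the change PA made in cells given IMQ, less the change it made in cells without. It was called below 0 for 5 genes and above 0 for 1 of 27, where 13.6% of all genes were called, 7.01% below and 6.58% above, and the median was -0.09, beside -0.01 over all genes. Acss2 was the gene above 0: PA raised it by 0.34 without IMQ and by 0.85 with it, a difference of 0.51 ± 0.11 (adjusted p = 0.004101). Srebf1 differed most in the other direction. PA raised it by 0.24 without IMQ and lowered it by 0.20 with it, so the interaction was -0.44 ± 0.07 (adjusted p = 0.00055). On the arrays, Srebf1 read 7.89, 7.86, 7.88 and 7.98 with PA, above all mock arrays, and 7.80, 7.69, 7.82 and 7.72 with both agents, below all IMQ arrays.

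The other 4 were Hsd17b7 (-0.41 ± 0.10; adjusted p = 0.009495), Sc5d (-0.35 ± 0.08; adjusted p = 0.007967), Mbtps2 (-0.30 ± 0.09; adjusted p = 0.03545) and Stard4 (-0.28 ± 0.08; adjusted p = 0.02361). For Hsd17b7 the rise with PA was smaller with IMQ (0.26) than without (0.66). Sc5d and Stard4 had PA changes of 0.06 and 0.03 with IMQ, against 0.41 and 0.30 without. The calls for Mbtps2 and Stard4 were lost when array medians were set equal. Without the 5 arrays the call for Acss2 was kept (0.59; adjusted p = 0.04762) and the other 5 missed the threshold, with estimates of -0.39 for Srebf1 and -0.42 for Hsd17b7. The interaction was not called for Insig1 (0.15), Insig2 (0.15), Srebf2 (-0.09) or Scap (-0.08). Side by side, in comparisons that share no array, PA raised 9 genes both without and with IMQ, 4 without IMQ only at the threshold, 4 with IMQ only at the threshold, and left 8 uncalled in both. Srebf1 rose in one and fell in the other, and Mbtps2 was called lower only with IMQ. Of all genes 1.05% were called higher with PA alone and 11.6% when PA was added to IMQ. The share of all genes called in both was not counted. Of the 8 genes called higher in 1 setting, the difference itself was called for Sc5d and Stard4, and for the other 6 it was not.

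Lists of neighbouring genes were read for comparison. Of 11 measured fatty acid synthesis targets of SREBP, 4 rose with PA alone (1.05% of all genes did), led by the desaturase Fads2 (0.50), the malic enzyme Me1 (0.42) and the desaturase Scd1 (0.28). With IMQ, 7 fell (17.9% of all genes did), led by the synthase Fasn (-0.97), Fads1 (-0.78) and Scd1 (-0.46), and 2 rose (17.0% did), Me1 (1.57) and the citrate carrier Slc25a1 (0.48). When PA was added to IMQ, 4 of the 11 fell (9.44% of all genes did), led by Scd1 (-0.70), Acaca (-0.28) and Fads2 (-0.24), and only Slc25a1 rose (0.18), whereas 11 of the 20 sterol enzyme and carrier genes rose and 0 fell. The medians of these lists under PA added to IMQ were -0.07 and 0.19, and the difference between the lists was not tested. Scd1 had an interaction of -0.97 ± 0.09 (adjusted p = 2.02e-06), against values no lower than -0.41 among the sterol enzymes and Stard4.

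Of 8 measured genes of the sterol-sensing LXR receptors and their targets, 5 fell when PA was added to IMQ, as did 9.44% of all genes, led by Ch25h (-2.18 ± 0.06; adjusted p = 1.291e-12), the exporter Abcg1 (-0.85) and the receptor Nr1h3 (-0.48). Ch25h makes an oxysterol known to hold SREBP back through INSIG. It read 7.91 to 8.13 in mock, 7.90 to 8.11 with PA, 10.4 to 10.5 with IMQ and 8.24 to 8.37 with both. The IMQ arrays thus lay far above all others, and the arrays with both agents lay above all mock and PA arrays. Ch25h was highest in the group where 20 of the 27 sterol genes were called below mock, and its part in that was not tested. With both agents Ch25h was above mock by a smaller amount (8.29 ± 0.06 against 8.01 ± 0.11). In that group 13 of the 27 genes were called below mock and Dhcr7 changed by -1.93. The part of Ch25h there was not tested either. With IMQ alone 4 of the 8 rose, beside 17.0% of all genes, led by Ch25h (2.47), the exporter Abca1 (0.89) and Lpcat3 (0.24), and 3 fell, beside 17.9%, Apoe (-1.40), Smpdl3a (-0.95) and Abcg1 (-0.72). With PA alone Lpcat3, an acyltransferase of membrane lipids, rose by 0.62 and the other 7 did not pass.

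**Figure D5:**
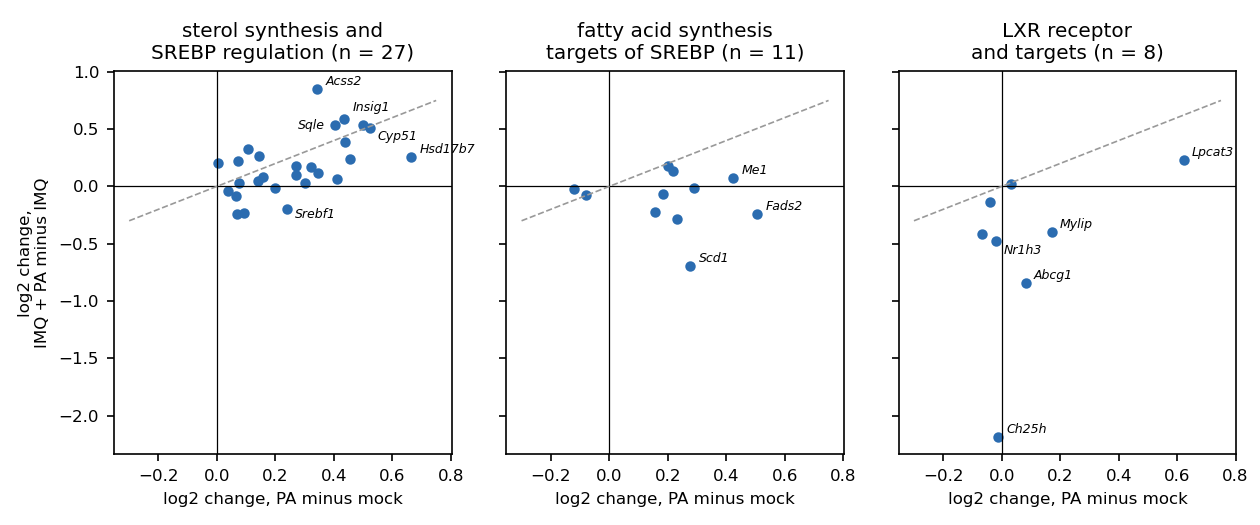
log2 change with PA in the absence of IMQ (horizontal) against that in its presence (vertical) for the 27 sterol and SREBP genes, 11 fatty acid synthesis targets and 8 LXR genes; each point is a gene and the dashed line marks equal changes. Most sterol genes lie above 0 on both axes, while Scd1 and Fads2 lie above 0 on the first and below 0 on the second, and Ch25h lies at -2.18 on the second.

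Smaller groups completed the pathway. Of 8 measured other sterol enzymes, partners and uptake genes, Tmem97 was the one that rose with PA (0.26), fell with IMQ (-0.47) and rose when PA was added (0.19). With IMQ, Acat1 (-0.67) and Aacs (-0.48), which handle acetoacetyl-CoA, fell and the reductase Cyb5r3 (0.42) rose. When PA was added to IMQ, Acat1 (-0.28) and Cyb5b (-0.24) fell.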

How the data were processed

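Total RNA (200 ng a sample) was hybridised to 1-colour Affymetrix arrays, as the labels' protocols state. The table the authors deposited holds log2 values, and RMA and affy are named, without versions, per the submitters' processing notes. RMA corrects background, applies quantile normalization and summarises probes, which compresses low signals. The genome build was not given in the sources used here. Of 41345 probe sets, 23521 had a single gene symbol in the platform annotation, 1814 had several and 16010 had none listed. For the 1082 genes with several of these, that of the highest mean stood for the gene, which left 22180 genes. All 27 measured genes matched the RefSeq symbol by gene number. The precision is limited by the number of arrays.

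A model of 4 group means was fitted to the 16 arrays with limma 3.58.1 in R 4.3.3 (12 residual and 2.96 prior degrees of freedom), two-sided, with Benjamini-Hochberg adjustment over all genes and no threshold on size. Errors after ± are standard errors for changes and SDs for levels. Per comparison, the 4 greatest rises and falls among called genes, called genes against the main direction, and Insig1, Insig2, Srebf1, Srebf2 and Scap were given, with up to 3 genes each way from other lists. Il6, Itgax, Mrc1 and Marco were named after their values were seen. The genes, lists and alternatives were chosen with earlier results of these data known. The comparison of both agents with mock was added after the values were seen. Alternatives covered normalization, dim genes, probe sets, variance moderation, the groups fitted, single arrays, the replicate number and arrays with inflammatory signal. The steps were tested on simulated data.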

Additional observations from a re-analysis of the deposited data

Results flagged for a closer look

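Among 108 groups of 4 values (27 genes in 4 groups), 1 value stood apart by Dixon's criterion, which chance meets in about 1 group in 20. It was Dhcr7 in mock replicate 1, at 7.79 where the other mock arrays read 8.02 to 8.05. That array still lay above all arrays with IMQ.

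For 6 genes the PA change differed between cells with and without IMQ by the limma interaction test. The difference was 0.51 for Acss2, where PA raised the gene more with IMQ. It was -0.44 for Srebf1, -0.41 for Hsd17b7, -0.35 for Sc5d, -0.30 for Mbtps2 and -0.28 for Stard4. Only Srebf1 was called in opposite directions in the 2 settings.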

How the results depend on the processing

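With the arrays of inflammatory signal left out, the count of genes called for PA against mock went from 14 to 0 (11 at an unadjusted limma p under 0.05) and for the interaction from 6 to 1. In the whole table the interaction then called 1200 genes and PA against mock 15, against 3015 and 331. That setting leaves 1 mock and 2 PA arrays, fewer samples. Over all genes, PA against mock called 737 with trend and robust moderation, 530 with dim genes left out and 150 with only mock and PA fitted, and 170 to 346 with single arrays left out. Leaving out single arrays gave 10 to 14 of the 27 genes for PA against mock, 21 to 23 for IMQ against mock, 13 to 16 for PA added to IMQ, 20 to 23 for IMQ added to PA and 4 to 7 for the interaction. Acss2, Lss, Nsdhl and Srebf1 were lost for PA against mock without mock replicate 1, mock replicate 2 or PA replicate 4. Whether the replicate numbers pair the arrays was not settled. Of 24 same-numbered pairs, 4 had deviations correlated over 0.1 (-0.12 to 0.17), and 7 of 16 arrays correlated best with their own number. The pairs of replicate 3 were all above 0 (0.04 to 0.17). With a replicate block, 11, 22, 15, 22 and 5 genes were called in the same order of comparisons, and 17 for both agents against mock. No called gene changed direction under any alternative run.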

Other observations

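The isoprenoid branch, which takes farnesyl diphosphate to dolichol, ubiquinone and prenylated proteins, had 15 measured genes, whose median change with PA alone was 0.11, beside 0.01 over all genes. With IMQ 5 rose (17.0% of all genes did), led by Rabggta (0.67), Rce1 (0.32) and Nus1 (0.23), and 4 fell (17.9% did), led by Rabggtb (-1.08), Dolpp1 (-0.77) and Fnta (-0.49). Rabggtb varied widely within mock (6.55 to 8.13) and with both agents (6.44 to 8.02), and read 6.32 to 6.44 with IMQ. PA added to IMQ raised 5 and lowered 0, where 11.6% of all genes rose and 9.44% fell. Nus1 and Dhdds, which together form the enzyme that builds dolichol chains, rose by 0.74 ± 0.04 and 0.29 ± 0.05, and Pdss2, of ubiquinone synthesis, by 0.29 ± 0.09. For Nus1 the interaction was 0.73 ± 0.06 (adjusted p = 3.808e-07).

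Of 12 measured sterol transport and storage genes, IMQ lowered 5, beside 17.9% of all genes, led by the cholesteryl ester hydrolases Nceh1 (-1.86) and Lipa (-1.43) and the lysosomal exporter Npc1 (-0.65), and raised 3, beside 17.0%, led by Stard5 (1.31) and Gramd1a (0.56). PA added to IMQ raised 4, beside 11.6% of all genes, led by Osbp (0.44), Lipa (0.23) and Nceh1 (0.20), and lowered 3, beside 9.44%, Stard5 (-0.51), Scarb1 (-0.30) and Gramd1b (-0.24). With PA alone Scarb1 rose (0.29). Of 6 measured genes of sterol sensing and degradation in the endoplasmic reticulum, the median change with PA alone was 0.04. With IMQ 3 rose (17.0% of all genes did), Erlin1 (0.37), Rnf145 (0.27) and Aup1 (0.16). The 2 that fell (17.9% did) were Fbxw7 (-0.55) and Erlin2, whose mean was 7.88 in mock and 7.65 with IMQ. When PA was added, Erlin1, Rnf145 and Aup1 fell (-0.33, -0.20 and -0.25), beside 9.44% of all genes. Erlin2 then rose (0.20), beside 11.6%. These comparisons share the IMQ arrays.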
